A study of Homo sapiens with 9 samples.

Results

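The transcripts of human chromosome 12 were followed here in AsPC-1 cells, an established line of human pancreatic adenocarcinoma. The members were the 1081 rows, of 21448 in the deposited expression table, whose identifier places them on chromosome 12. The set was chosen by the measured differences from control: earlier results of the same arrays showed that its rows lay higher in both knockdown lines. The differences from control are therefore given as a description, and no p-value is printed for them. Calls against control by adjusted p, given below, belong to that description. A shift shared by both lines also favours a small difference between them over the chromosome as a whole, so that difference was tested for single genes only. Of the 1081 rows, 929 carried 1 gene symbol, 909 of these protein coding, and 152 did not.

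The control cells carried the blank plasmid pBAsi-hU6 NEO. The sh1 and sh2 cells carried the same type of plasmid with shRNA-1 or shRNA-2 of SLP-2, the protein of the gene STOML2, a scaffold protein of the inner mitochondrial membrane. The cells of each group were kept in Geneticin for 3 weeks and grown from a single colony, so each group is 1 clone, and an effect of the shRNA cannot be told apart from a difference between clones. There were 3 arrays a group, each of 100 ng of RNA, and the labels do not say whether they are separate cultures, so errors and p-values measure the spread between these arrays. Both comparisons with the control use the same 3 control arrays, so a control clone that stood low and knockdown lines that stood high cannot be told apart. The study asked what SLP-2 does in the development of pancreatic cancer.

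The targeted gene went with the labels: STOML2 had a log2 signal of 13.67 ± 0.03 (SD, n = 3) in control, 8.32 ± 0.12 in sh1 and 7.73 ± 0.34 in sh2. The medians of the 9 arrays lay between 6.57 and 6.65. Correlations between arrays ran from 0.994 to 0.996 within groups and from 0.982 to 0.988 between groups. Of 9 epithelial markers, 8 were above the median of the table in every group. Of 6 fibroblast markers measured, COL1A2 and THY1 were above it in every group and LUM was under the lower quartile (4.21). Of 5 blood markers CD68 was above the median and HBB under the lower quartile, and 3 of 5 endothelial and 4 of 5 acinar markers were under that quartile. In control, sh1 and sh2, EPCAM was 8.94, 13.88 and 9.68, CDH1 8.71, 10.74 and 8.19, CLDN4 12.03, 14.11 and 13.88, KRT19 16.19, 14.50 and 15.62, MUC1 9.04, 9.06 and 9.51, and COL1A1 9.84, 6.65 and 6.36. Epithelial and collagen genes outside chromosome 12 thus also differed between the clones, in both directions. The part of these differences in the results below was not tested.

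Chromosome 12 holds several gene clusters that arose by duplication: the type II keratins, which pair with type I keratins to form the intermediate filaments of epithelia, with the type I keratin KRT18 beside KRT8; the HOXC genes, which specify position along the body axis; the C-type lectin genes of the natural killer complex; the bitter taste receptors; and the SLCO1 organic anion transporters. Between them lie genes used by every dividing cell, among them the cyclin-dependent kinases CDK2 and CDK4, and MDM2, the ubiquitin ligase that degrades p53. The short arm and the long arm meet at the centromere, which here falls between ALG10 and ALG10B in gene order.

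Promoters are shown for 3 genes that were higher and 3 that were lower in both knockdown lines, to set the CG content of the genes at both extremes of the chromosome side by side. They are the first in rank by the smaller of their 2 differences that have an entry in the RefSeq promoter table (GRCh38.p14). Each runs from 250 bases before to 50 bases after the start of the gene, 5′ to 3′ on the strand of the gene, with every CG dinucleotide in capitals. The higher genes were TMT1B, a methyltransferase of lipid droplets, DUSP6, the phosphatase that inactivates ERK, and SLC38A4, an amino acid transporter.
TMT1B, chr12:55681486-55681785, plus strand: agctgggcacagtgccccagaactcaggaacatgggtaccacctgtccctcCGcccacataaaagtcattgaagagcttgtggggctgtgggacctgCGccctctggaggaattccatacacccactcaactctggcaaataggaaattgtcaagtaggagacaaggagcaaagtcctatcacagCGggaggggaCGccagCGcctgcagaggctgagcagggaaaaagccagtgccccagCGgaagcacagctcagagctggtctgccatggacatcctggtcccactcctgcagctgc
DUSP6, chr12:89352452-89352751, minus strand: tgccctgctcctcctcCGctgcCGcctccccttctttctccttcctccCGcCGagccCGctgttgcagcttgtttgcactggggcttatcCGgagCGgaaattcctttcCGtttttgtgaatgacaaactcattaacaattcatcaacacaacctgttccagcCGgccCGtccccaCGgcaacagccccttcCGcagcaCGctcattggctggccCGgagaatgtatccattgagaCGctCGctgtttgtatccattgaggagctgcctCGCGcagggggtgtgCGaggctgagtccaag
SLC38A4, chr12:46825948-46826247, minus strand: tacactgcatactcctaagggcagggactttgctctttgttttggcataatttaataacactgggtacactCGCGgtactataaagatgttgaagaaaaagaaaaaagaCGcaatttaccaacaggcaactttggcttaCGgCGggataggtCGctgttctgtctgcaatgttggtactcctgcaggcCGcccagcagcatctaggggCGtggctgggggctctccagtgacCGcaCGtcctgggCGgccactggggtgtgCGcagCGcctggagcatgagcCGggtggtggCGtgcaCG
The lower genes were SLCO1B3, which takes bile acids and other organic anions into hepatocytes, ST8SIA1, the sialyltransferase that makes ganglioside GD3, and TRHDE, the ectoenzyme that degrades thyrotropin-releasing hormone.
SLCO1B3, chr12:20810455-20810754, plus strand: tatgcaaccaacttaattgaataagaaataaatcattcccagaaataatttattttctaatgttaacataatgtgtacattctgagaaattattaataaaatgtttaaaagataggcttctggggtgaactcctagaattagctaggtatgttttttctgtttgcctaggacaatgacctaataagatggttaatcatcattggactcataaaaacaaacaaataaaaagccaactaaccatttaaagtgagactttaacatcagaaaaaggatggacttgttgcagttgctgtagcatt
ST8SIA1, chr12:22334658-22334957, minus strand: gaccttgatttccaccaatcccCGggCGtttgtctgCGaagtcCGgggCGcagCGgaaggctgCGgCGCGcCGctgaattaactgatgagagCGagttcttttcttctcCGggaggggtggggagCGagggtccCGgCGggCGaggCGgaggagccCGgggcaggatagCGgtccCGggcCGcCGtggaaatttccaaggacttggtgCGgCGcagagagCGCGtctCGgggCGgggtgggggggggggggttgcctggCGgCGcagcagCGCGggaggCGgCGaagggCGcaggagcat
TRHDE, chr12:72272120-72272419, plus strand: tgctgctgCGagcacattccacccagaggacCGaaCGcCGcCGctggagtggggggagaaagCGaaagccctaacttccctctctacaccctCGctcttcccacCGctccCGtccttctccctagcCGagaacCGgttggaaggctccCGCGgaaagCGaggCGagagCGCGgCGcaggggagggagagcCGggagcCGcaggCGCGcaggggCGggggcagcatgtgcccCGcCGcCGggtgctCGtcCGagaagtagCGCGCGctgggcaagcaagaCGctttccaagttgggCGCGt

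The CG dinucleotide occurred 6, 19 and 16 times in the promoters of TMT1B, DUSP6 and SLC38A4 and 0, 35 and 34 times in those of SLCO1B3, ST8SIA1 and TRHDE. The 6 letters TATAAA, searched on both strands, were found in the SLC38A4 promoter and in none of the other 5. Of the 929 named genes, 692 had a promoter entry. For rows above the median signal, 87.6% of 418 promoters had a CG content of at least 0.6 of that expected from their C and G content, and 3.35% held TATAAA. For rows at or below the median these shares were 32.5% and 22.6% of 274. Promoters of all genes on the array had 67.0% and 9.41% of 14267, and all 27305 promoters in the table had 49.0% and 11.95%. Genes called higher in both lines, by the threshold given below, had 90.3% and 4.30% of 93. Those called lower in both had 46.7% and 13.3% of 15. The 6 promoters shown thus do not stand for these sets, and the part of signal in the difference between the sets was not tested. Rows of higher and lower signal on the chromosome thus differed in promoter type, as a description of these windows.

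The rows were split at the median of all row means (log2 6.61), which left 562 chromosome 12 rows above it (52.0%) and 519 at or below it. The rows just outside were POP5 (6.59) and OR10P1 (6.59), and those just inside were TRHDE (6.66) and CSAD (6.67). Row signals depend on the probes as well as on the RNA, so the split is a rough measure of detection. TRHDE passed through its control and sh2 arrays, since its sh1 arrays were all under the split. PKP2, OLR1, CD69, DUSP6 and TMT1B passed through their sh1 and sh2 arrays, since their control arrays were all under it. In the results below such genes stand above the split. Other rows that passed in this way were not counted.

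Above the split, the median difference from control on the log2 scale was 0.30 in sh1 (quartiles 0.02 to 0.57) and 0.32 in sh2 (0.09 to 0.58). The other 10160 rows above the median had medians of 0.03 and 0.01. The difference was above 0 for 428 of the 562 rows in sh1 (76.2%) and for 465 in sh2 (82.7%), against 52.8% and 51.3% of the other rows. The shift was thus a displacement of most detected rows of the chromosome by a fraction of a log2 unit, rather than large changes of a few.

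Both lines were higher than control for 388 of the 562 rows (69.0%; 40.4% of all rows above the median) and both were lower for 57 (10.1%; 33.2%). In 209 rows (37.2%) all 3 arrays of both lines lay above all 3 control arrays, where 15.2% of all rows above the median did, and in 23 (4.09%) all 6 lay below them, where 14.2% did. These counts restate the choice of the chromosome, and nothing is read from them beyond their size.

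The shift was visible array by array. After subtraction of each row's mean over the 9 arrays, the median of the 562 rows lay between -0.24 and -0.18 on the control arrays, between 0.06 and 0.08 on the sh1 arrays and between 0.10 and 0.13 on the sh2 arrays. On the other rows above the median the same medians lay between -0.02 and 0.02 in all 9 arrays. No control array reached the level of any sh1 or sh2 array on chromosome 12, and the sh1 arrays lay next to the sh2 arrays.

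**Figure D1:**
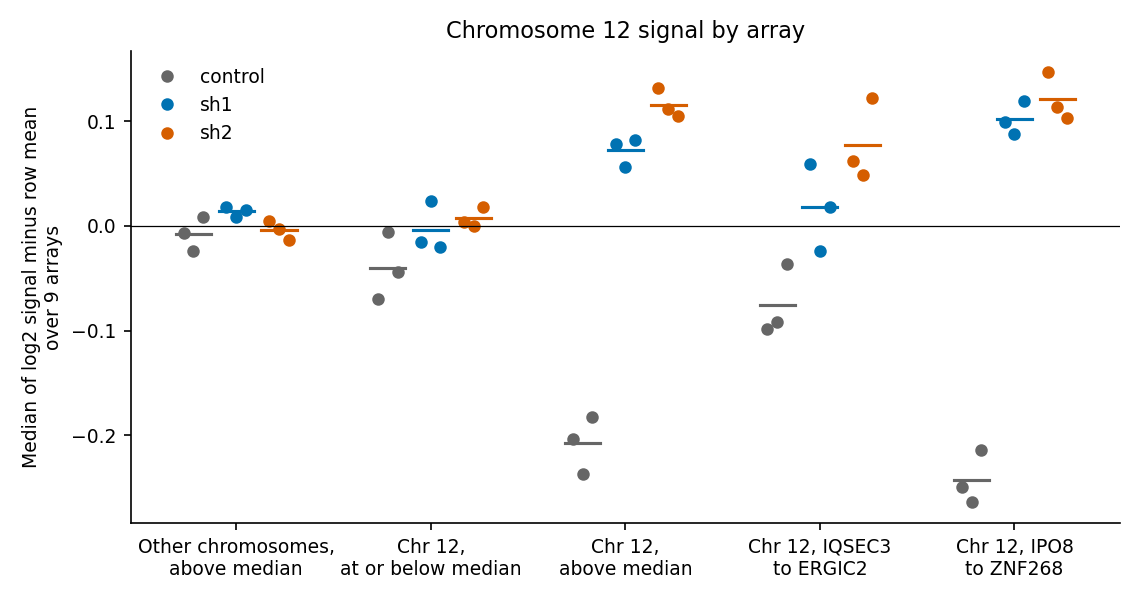
Median of the log2 signal minus the row mean over 9 arrays (y axis) for 5 sets of rows (x axis); each point is 1 array and each bar the mean of 3 arrays of control, sh1 or sh2. The control arrays sit between -0.24 and -0.18 for chromosome 12 rows above the median, all sh1 and sh2 arrays sit above 0 there, and the other chromosomes stay near 0.

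The size of the shift went with signal. In the rows of the table under its lower quartile of signal, 280 chromosome 12 rows had medians of 0.01 in sh1 and 0.03 in sh2. The 239 rows from there to the median had 0.07 and 0.11, the 263 rows from the median to the upper quartile (9.97) had 0.29 and 0.29, and the 299 rows above that had 0.32 and 0.33. Rows at or below the median had 0.03 and 0.05 in all, beside 0.01 and 0.01 elsewhere. A shift was hardly seen in the rows near the background of the arrays.

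Rows without a gene symbol showed it as well: the 57 above the median had medians of 0.21 in sh1 and 0.27 in sh2. Genes on the plus strand (228 with a promoter entry) had 0.27 and 0.305, and those on the minus strand (190) had 0.33 and 0.33. By promoter type, the 366 genes with a CG content at or above 0.6 had 0.32 and 0.31, and the 52 under it had 0.17 and 0.34.

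Set against the other chromosomes by the same median over rows above the table median, chromosome 12 stood second of 23 in sh1 and first in sh2. In sh1 chromosome 15 was higher, at 0.75. In sh2 chromosome 15 followed at 0.25 and chromosome 13 at 0.23. The other 22 chromosomes ran from -0.30 to 0.75 in sh1 and from -0.51 to 0.25 in sh2, with the lowest value in both at chromosome 5. Chromosome 12 had nearly the same median in both lines, and so did others, such as chromosome 1 (0.10 and 0.09) and chromosome 14 (0.07 and 0.07). The median of sh2 minus sh1 was 0.04 on chromosome 12. On the other 22 it ran from -0.48 on chromosome 15 to 0.23 on chromosome 13, with a median of -0.01.

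**Figure D2:**
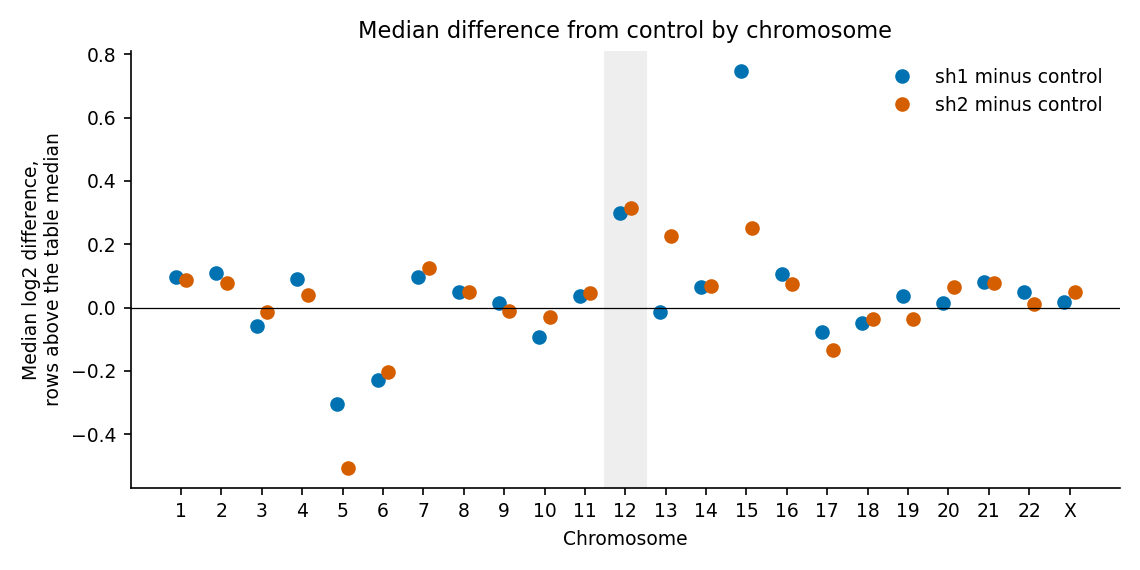
Median log2 difference from control (y axis) of the rows above the table median, by chromosome (x axis), for sh1 and sh2; no error is drawn, since rows of a chromosome are not replicates. Chromosome 12, on the shaded band, has 0.30 in sh1 and 0.32 in sh2, and chromosome 15 has 0.75 and 0.25.

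Gene order was taken from RefSeq starts on GRCh38.p14, which gave 505 named genes above the median, 122 on the short arm and 383 on the long arm. The short arm had a median difference of 0.13 in sh1 and 0.18 in sh2, and the long arm 0.35 and 0.36. Both lines were higher than control for 63 short-arm genes (51.6%) and 287 long-arm genes (74.9%). In both lines the median shift was thus larger on the long arm.

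In bins of 25 genes, the 4 bins from the short-arm end to MED21 had medians of 0.05 to 0.15 in sh1 and 0.05 to 0.32 in sh2. The lowest in sh1 ran from TNFRSF1A to FOXJ2 (0.05; 0.17 in sh2) and the lowest in sh2 from IQSEC3 to CD9 (0.05; 0.12 in sh1). From STK38L to the long-arm end, 16 bins (the last of 30 genes) had medians of 0.14 to 0.45 in sh1 and 0.11 to 0.48 in sh2. The most uniform bin ran from CCNT1 to TFCP2, where 23 of 25 genes were higher in both lines, with medians of 0.42 and 0.43. The bin from DDIT3 to TBC1D30, which holds CDK4, had 0.45 and 0.48. The exception on the long arm was the bin from ATP5MC2 to RPL41, which holds the HOXC genes, at 0.14 and 0.11.

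A running median over 41 genes went from 0.02 around SLCO1B3 to 0.46 around DENR in sh1. In sh2 it went from 0.03 around NDUFA9 to 0.52 around ARHGEF25, so both lines had their low on the short arm and their high on the long arm, at different genes. A single split of the gene order, placed after the values were seen where the sum of absolute deviations of the mean of both lines was least, fell between ERGIC2 and IPO8 on the short arm. The 108 genes before it had medians of 0.09 and 0.17 and the 397 after it 0.35 and 0.36. In each line alone the split fell elsewhere, between SSPN and ITPR2 (95 genes before) in sh1 and between TPI1 and LRRC23 (42 genes before) in sh2, so its place is not sharp.

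**Figure D3:**
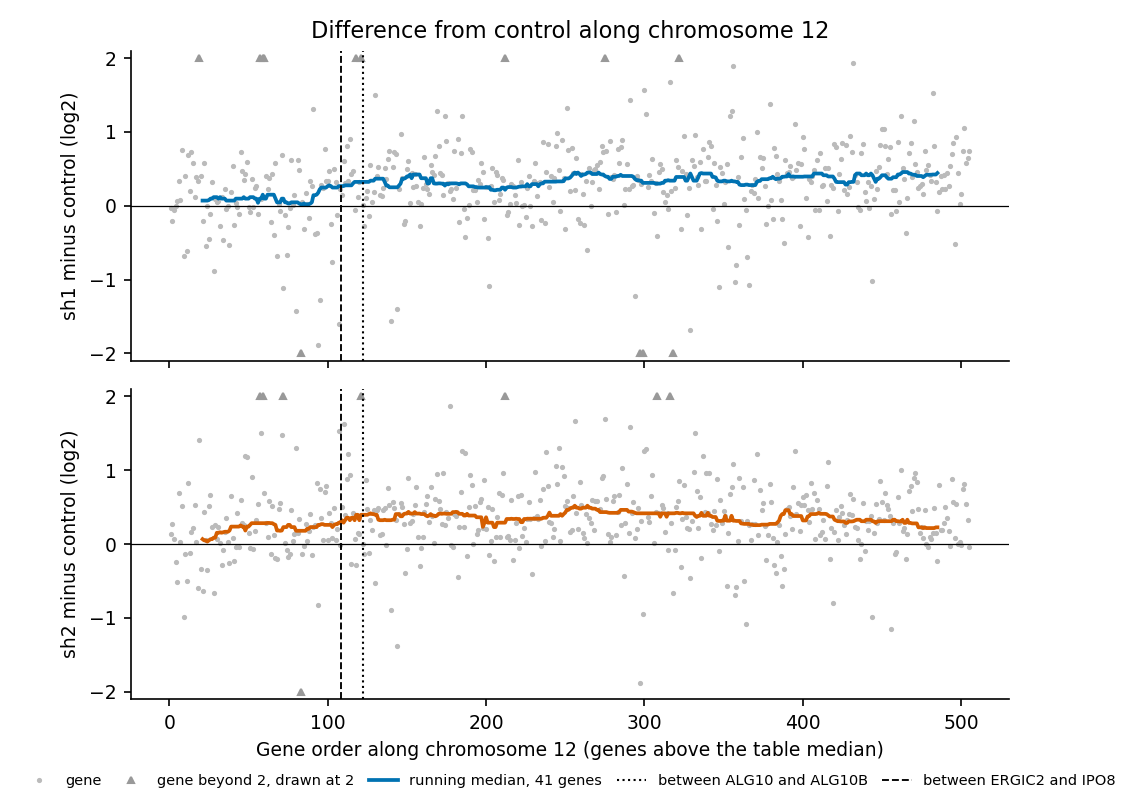
Difference from control on the log2 scale (y axis) of 505 genes above the table median in their order along chromosome 12 (x axis), for sh1 (top) and sh2 (bottom); the line is the running median over 41 genes. The running median, drawn where a full window of 41 genes fits, stays above 0 and is near 0.02 to 0.03 at its lowest on the short arm and 0.46 to 0.52 at its highest on the long arm.

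A row was called where limma's adjusted p (Benjamini-Hochberg over all 21448 rows) was under 0.05. Calls against control follow the shift for which the chromosome was chosen, so their counts restate that choice in part. In sh1, 251 of the 1081 rows were called (23.2%; 18.8% of all rows), 206 of them higher than control (19.1%; 9.76% of all rows) and 45 lower (4.16%; 9.0%). In sh2, 255 were called (23.6%; 16.3%), 223 of them higher (20.6%; 8.33%) and 32 lower (2.96%; 7.98%). Of the 1081 rows, 130 were called higher in both lines, beside a share of 4.28% among all 21448 rows. This count fell to 85 without control array 2. Another 22 were called lower in both (2.04%; 4.65% of all rows), which fell to 14 without control array 3. A further 5 rows were called in opposite directions and are described with the comparison of both lines, and the other rows had no call in at least 1 line.

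The gene furthest above control in both lines was PKP2, the desmosomal plaque protein plakophilin 2. It had 4.98, 5.83 and 4.86 in control, 12.26, 12.18 and 12.14 in sh1 and 8.18, 8.10 and 8.53 in sh2. The differences were 6.97 ± 0.23 (SE, n = 3 a group) in sh1 and 3.05 ± 0.23 in sh2. PKP2 thus stood above control in both lines, with sh1 far above sh2 and no overlap of groups. Its neighbours above the median in gene order, YARS2 (0.32 and 0.13) and ALG10 (0.02 and 0.01), had far smaller differences.

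OLR1, a scavenger receptor for oxidised LDL, had 4.69, 4.57 and 4.44 in control, 8.56, 8.56 and 8.63 in sh1 and 7.33, 7.50 and 7.30 in sh2. Its differences were 4.02 ± 0.12 and 2.81 ± 0.12. CD69, a C-type lectin induced on activated lymphocytes, had 5.30, 5.63 and 5.53 in control, 8.02, 8.22 and 7.49 in sh1 and 8.38, 7.53 and 7.62 in sh2. Both genes lie in the natural killer complex and both were above every control array in both lines, while the sh1 and sh2 arrays overlapped for CD69 alone.

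DUSP6, whose promoter is shown above, had 5.86, 6.06 and 6.46 in control, 7.73, 8.24 and 7.45 in sh1 and 8.71, 8.23 and 8.25 in sh2 (differences 1.68 ± 0.22 and 2.27 ± 0.22). CCND2, the G1 cyclin D2, had 8.67, 9.09 and 8.90 in control, 10.82, 11.51 and 11.05 in sh1 and 10.21, 10.32 and 10.38 in sh2 (2.24 ± 0.18 and 1.42 ± 0.18). TMT1B had 5.92, 5.86 and 6.50 in control, 8.22, 8.13 and 8.00 in sh1 and 8.34, 8.47 and 8.26 in sh2 (2.02 ± 0.17 and 2.26 ± 0.17). In all 3 genes every sh1 and sh2 array lay above the highest control array. The other members of the 10 highest were TBC1D30 (2.92 and 1.69), SLC38A4 (1.47 and 2.41), the glucose transporter SLC2A3 (1.46 and 1.60) and RAB3IP (1.44 and 1.58), an exchange factor for RAB8. The row means of SLC38A4 and SLC2A3 lay under the split.

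Among the genes furthest below control, SLCO1B3 had 10.89, 10.90 and 10.89 in control, 4.65, 4.55 and 5.10 in sh1 and 7.53, 7.39 and 7.55 in sh2, with differences of -6.13 ± 0.15 and -3.40 ± 0.15. TRHDE had 9.51, 9.24 and 9.42 in control, 3.54, 2.68 and 3.04 in sh1 and 7.29, 7.67 and 7.57 in sh2, with -6.30 ± 0.20 and -1.88 ± 0.20. Both were well detected in control and under the lower quartile of row means or near it in sh1. The neighbours of TRHDE above the median, TBC1D15 (0.35 and 0.49) and ATXN7L3B (0.30 and 0.31), lay above control. Those of SLCO1B3 were AEBP2 (0.49 and 0.33) and PYROXD1 (0.05 and -0.13), in the stretch with the lowest running median in sh1.

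ST8SIA1 had 5.63, 5.73 and 5.39 in control, 3.16, 3.63 and 3.48 in sh1 and 3.29, 3.10 and 3.62 in sh2 (-2.16 ± 0.17 and -2.25 ± 0.17). VDR, the vitamin D receptor, had 8.99, 8.17 and 8.48 in control, 7.10, 7.28 and 7.05 in sh1 and 7.45, 6.93 and 7.12 in sh2 (-1.40 ± 0.20 and -1.38 ± 0.20). Both knockdown lines overlapped in both genes, apart from all control arrays. Of the other 6 of the 10 lowest, 4 were BHLHE41, a repressor of the circadian clock (-1.88 and -0.82), GLIPR1 (-2.23 and -0.95), AMIGO2 (-1.57 and -0.89), and OASL, an interferon-induced gene (-1.02 and -0.99). AVIL, at -1.50 and -0.87, lost its call in sh2 without control array 2 or control array 3. The row means of ST8SIA1 and AVIL lay under the split.

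**Figure D4:**
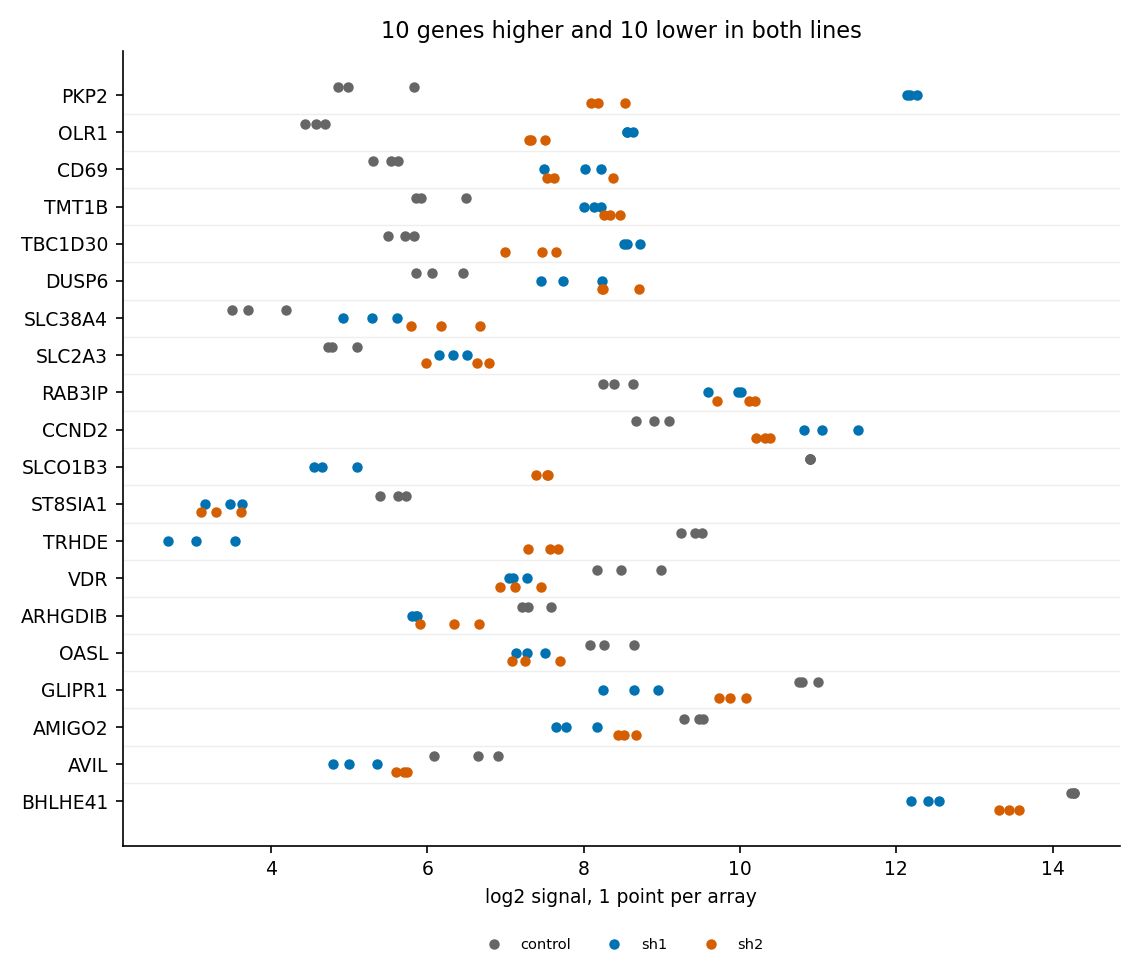
The log2 signal (x axis) of 10 genes higher and 10 genes lower than control in both lines (y axis); each point is 1 array of control, sh1 or sh2. PKP2 has the widest range among the higher genes (4.86 to 12.26) and TRHDE among the lower genes (2.68 to 9.51), and in no gene does a knockdown array cross into the range of the control arrays.

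All 20 measured genes of the cell cycle and DNA replication were higher than control in both lines by sign, a direction for which the chromosome was chosen. By sign, 69.0% of the chromosome's rows above the split were higher in both lines, beside 40.4% of all rows above it. The list was chosen with earlier results of these data known. Their medians were 0.57 in sh1 and 0.55 in sh2, from 0.03 to 2.24 and from 0.03 to 1.42. All 20 lay above the split, where the chromosome's medians were 0.30 and 0.32 and those of all rows 0.04 and 0.03. In sh1, 12 were called higher and 0 lower, with 8 not called. The 12 fell to 8 without control array 2, sh1 array 1 or sh1 array 3. In sh2, 14 were called higher and 0 lower, which fell to 8 without control array 1, 7 without control array 2, 9 without control array 3 and 7 without sh2 array 1. Of the chromosome 12 rows above the split, 32.2% were called higher in sh1 and 34.9% in sh2, while other rows above it had shares of 14.8% and 12.4%.

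Among them, MDM2 had 9.93, 9.75 and 10.16 in control, 10.70, 10.83 and 10.99 in sh1 and 10.91, 10.99 and 11.03 in sh2 (0.89 ± 0.14 and 1.03 ± 0.14). KNTC1, a subunit of the complex that recruits checkpoint proteins to kinetochores, had 9.53, 9.70 and 9.98 in control, 11.00, 10.81 and 11.04 in sh1 and 10.68, 10.65 and 10.89 in sh2 (1.21 ± 0.15 and 1.00 ± 0.15). The knockdown arrays of both genes lay above all control arrays and at like levels in both lines. Further members were TIMELESS, of the replication fork (0.86 and 0.74), POLE, the catalytic subunit of DNA polymerase epsilon (0.85 and 0.57), RFC5, of the clamp loader (0.85 and 0.42), and RACGAP1, needed for cytokinesis (0.55 and 0.77).

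CDK2 had 11.98, 11.77 and 12.07 in control, 12.55, 12.53 and 12.58 in sh1 and 12.88, 12.38 and 12.50 in sh2, with differences of 0.61 ± 0.15 and 0.65 ± 0.15 whose calls were both lost without control array 2. CDK4 had 12.98, 12.78 and 12.87 in control, 13.30, 13.41 and 13.21 in sh1 and 13.62, 13.32 and 13.28 in sh2, at 0.43 ± 0.135 and 0.53 ± 0.135. Every knockdown array of both kinases was above every control array, but the call of CDK4 in sh1 was lost without any 1 control or sh1 array or sh2 array 2, and that in sh2 without control array 2 or 3 or sh2 array 1. CDKN1B, the inhibitor p27, had 9.95, 9.90 and 9.68 in control, 9.67, 10.06 and 9.89 in sh1 and 10.50, 10.16 and 10.31 in sh2, so that sh1 overlapped control.

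Of 21 chromatin and transcription regulators measured, 6 were called higher and 2 lower in sh1, and 4 higher and 3 lower in sh2, with medians of 0.12 and 0.27. The shares called higher were 19.1% and 20.6% of all chromosome 12 rows, and 32.2% and 34.9% of those above the split, where 15 of the 21 lay. Those called lower were 4.16% and 2.96% of all chromosome 12 rows, beside 9.0% and 7.98% of all rows. With 1 array left out, the number called higher ran from 4 to 5 in sh1 and from 3 to 5 in sh2. KMT5A, the methyltransferase of histone H4 lysine 20, had 10.82, 10.69 and 10.74 in control, 11.96, 11.74 and 11.98 in sh1 and 11.71, 11.69 and 11.54 in sh2 (1.14 ± 0.12 and 0.90 ± 0.12). KDM2B, a histone demethylase, was higher by 0.82 and 0.86. The members called lower in both lines were VDR and BHLHE41, described above.

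Of 11 genes of translation and RNA binding, 3 were called higher and 0 lower in sh1, and 2 higher and 0 lower in sh2 (1 without control array 2), with medians of 0.15 and 0.11. All 11 lay above the split, where 32.2% and 34.9% of the chromosome's rows were called higher. LARP4, which protects poly(A) tails, had 10.44, 10.44 and 10.52 in control, 11.26, 11.17 and 11.41 in sh1 and 11.05, 11.08 and 11.01 in sh2 (0.81 ± 0.12 and 0.58 ± 0.12). The ribosomal protein genes RPS26 (0.00 and 0.11), RPL41 (-0.15 and 0.03) and RPL6 (-0.05 and 0.07) lay nearer to control than the median of the chromosome's rows above the split.

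Mitochondrial proteins were of interest because SLP-2 works in the mitochondrion. Of 24 measured, 5 were called higher in sh1 (3 without control array 1, 2 without control array 2) and 7 in sh2 (4 without control array 1, control array 3 or sh2 array 3, and 3 without control array 2 or sh2 array 2). None was called lower with all arrays, and 1 was in sh2 without sh2 array 1. The medians were 0.24 and 0.32. Of these genes 22 lay above the split, where 32.2% and 34.9% of the chromosome's rows were called higher. SHMT2, the serine hydroxymethyltransferase of mitochondrial one-carbon metabolism, had 12.43, 12.13 and 12.45 in control, 13.26, 13.35 and 13.07 in sh1 and 13.53, 13.30 and 13.30 in sh2 (0.89 ± 0.14 and 1.04 ± 0.14). All 6 knockdown arrays lay above all control arrays. By contrast, DNM1L, the GTPase that divides mitochondria, was at 0.11 ± 0.13 and 0.16 ± 0.13, CS, the citrate synthase, at -0.19 and -0.02, and ATP5F1B, of ATP synthase, at 0.26 and 0.30.

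Of 9 genes of glucose uptake and glycolysis, 1 was called higher in sh1 (2 without control array 2 or sh1 array 3) and 3 in sh2, and none lower, with medians of 0.02 and 0.04. The shares called higher were 19.1% and 20.6% of all the chromosome's rows. The enzymes GAPDH (-0.27 and 0.01), TPI1 (0.04 and -0.04) and LDHB (0.02 and 0.04) lay near control, while the transporter SLC2A3 was called higher in both lines. Its near-identical neighbour SLC2A14 was at 0.60 and 1.18, and probes for the pair may read both transcripts.

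Of 16 solute carriers, 7 were called higher in sh1 (4 without control array 2 or sh1 array 3) and 4 in sh2, and 1 lower in each, SLC41A2 (-0.80 and -0.59), whose call in sh2 was lost when control array 1 or 3 or when sh2 array 2 or 3 was left out. The medians were 0.26 and 0.23. Of these genes 9 lay above the split. There 32.2% and 34.9% of the chromosome's rows were called higher, beside 19.1% and 20.6% of all its rows. The glutamine transporter SLC38A1 was at 0.63 and 0.76 and SLC38A4 at 1.47 and 2.41. Of the 4 SLCO1 transporters measured, 2 were called lower in both lines, SLCO1B3 and SLCO1B1 (-0.53 and -0.61), and the latter lost its call in sh1 without control array 3 or sh1 array 2. SLCO1A2 (0.16 and 0.01) and SLCO1C1 (-0.43 and -0.39) were not called, and no member was called higher. Among all the chromosome's rows, 4.16% and 2.96% were called lower.

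Of 13 genes of lipid metabolism, 3 were called higher (1 without control array 2 or sh1 array 2) and 2 lower in sh1. In sh2, 1 was called higher (0 without control array 1 or 2, any sh1 array, or sh2 array 2 or 3) and 1 lower (0 without any control array, any sh1 array, or sh2 array 1 or 3). The medians were 0.00 and 0.12. Among all the chromosome's rows, 19.1% and 20.6% were called higher and 4.16% and 2.96% lower. SCARB1, the receptor that takes up cholesterol from HDL, had 12.86, 12.46 and 12.55 in control, 14.06, 14.37 and 14.04 in sh1 and 12.92, 12.84 and 12.58 in sh2 (1.53 ± 0.16 and 0.16 ± 0.16), so it stood apart in sh1 and overlapped control in sh2.

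Of 12 genes of RAS-MAPK and receptor signalling, 4 were called higher in each line and 0 lower, with medians of 0.27 and 0.19, where 19.1% and 20.6% of the chromosome's rows (9.76% and 8.33% of all rows) were called higher. Beside DUSP6, PTPN11, the phosphatase SHP2, was at 0.61 and 0.60. ERBB3, a receptor of neuregulins, had 4.28, 4.40 and 3.62 in control, 4.96, 5.20 and 5.56 in sh1 and 4.35, 4.56 and 4.56 in sh2, so sh2 overlapped control. Of 9 interferon and innate immune genes, 3 were called higher and 1 lower in sh1, and 2 higher and 1 lower in sh2, with medians of 0.09 and 0.12. The same shares called higher apply to this list. Shares called lower were 4.16% and 2.96% of the chromosome's rows, beside 9.0% and 7.98% of all rows. TBK1, the kinase that phosphorylates IRF3, was higher in both (0.80 ± 0.15 and 0.90 ± 0.15), and OASL was lower in both.

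Of 21 matrix, adhesion and tetraspanin genes, 1 was called higher and 4 lower in sh1, and 5 higher and 1 lower in sh2, where the lower call went to 0 without any 1 of 5 arrays (control arrays 1 and 2, and each sh2 array). The medians were 0.02 and 0.12. For these and the WNT genes below, the shares of all the chromosome's rows were 19.1% and 20.6% called higher and 4.16% and 2.96% called lower. PKP2 was the gene higher in both. ITGA5, the alpha subunit of the fibronectin receptor, had 12.29, 12.04 and 11.90 in control, 12.38, 12.54 and 12.34 in sh1 and 13.24, 13.08 and 12.78 in sh2 (0.34 ± 0.16 and 0.96 ± 0.16). All its knockdown arrays lay above control and sh2 above sh1, but the difference in sh1 was small and not called. Its call in sh2 relative to sh1 was lost under 5 alternatives. Of 8 WNT genes with LGR5, 1 was called higher in sh1 (0 without any control array or sh1 array 1 or 2) and 1 lower (0 without any control array or sh1 array 3). In sh2, 0 were called higher (1 without sh2 array 1) and 1 lower. The lower gene in both was WNT5B, a WNT ligand (-0.68 and -0.99), and the medians were 0.01 and -0.005.

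The duplicated clusters held few detected rows. Their counts stand beside 19.1% and 20.6% of all the chromosome's rows called higher in sh1 and sh2, and 4.16% and 2.96% called lower. Of 22 keratins, 4 lay above the median, 3 were called higher in sh1 and 2 in sh2, and none was called lower (1 in sh1 without sh1 array 1); medians were 0.045 and 0.135. KRT8 had 16.18, 16.12 and 16.29 in control, 16.86, 16.89 and 16.97 in sh1 and 16.97, 16.87 and 16.85 in sh2 (0.71 ± 0.12 and 0.70 ± 0.12). Its partner KRT18 had 13.50, 13.40 and 13.23 in control, 14.72, 14.33 and 14.71 in sh1 and 14.79, 14.56 and 14.58 in sh2 (1.21 ± 0.15 and 1.27 ± 0.15). This pair of simple epithelia was thus higher in both lines to the same extent, whereas KRT7, also of simple epithelia, was at -0.22 ± 0.16 and 0.23 ± 0.16.

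Of 6 HOXC genes, 2 were called higher in sh1 and 1 in sh2, and none lower, with medians of 0.34 and 0.07. The counts went to 0 without control array 1 or 2, without sh1 array 1 or 2 in sh1 and without sh2 array 1 or 2 in sh2, and to 1 in sh1 without sh1 array 3 or sh2 array 3. Called higher were 19.1% and 20.6% of all the chromosome's rows, and 32.2% and 34.9% of those above the split, where 5 HOXC genes lay. Of 24 lectin genes, 4 lay above the median, OLR1 and CD69 only through their knockdown arrays. In sh1, 2 were called higher and in sh2 4, with medians of -0.01 and 0.115, and none was called lower (1 in sh2 without sh2 array 2). CLEC2B had 9.32, 9.05 and 9.19 in control, 9.71, 9.03 and 9.11 in sh1 and 10.85, 10.72 and 10.52 in sh2, apart from the others in sh2 alone. Of 16 taste receptor and salivary proline-rich protein genes, 1 lay above the median. PRR4 was called lower in both lines (-0.92 and -0.61), and 1 gene was called higher in sh2 (0 without control array 1 or 3, and 3 without sh2 array 1); the medians were 0.02 and 0.06.

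Between sh2 and sh1, single genes of the chromosome differed in both directions. Over the 562 rows above the median the median difference was 0.04, beside -0.03 for the other rows. In this comparison 81 of the 1081 rows rose in sh2 relative to sh1 (7.49%; 5.73% of all rows) and 51 fell (4.72%; 5.57%), by limma's adjusted p under 0.05. The share in either direction was 12.2%, beside 11.3% of all rows, and nothing is read from these shares, since the chromosome was chosen for a shift shared by both lines. By arm, 20 of the 122 short-arm genes above the median rose and 12 fell, and 40 of the 383 long-arm genes rose and 29 fell, where 9.29% of all rows above the median rose and 8.63% fell.

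The genes that rose most in sh2 relative to sh1 were TRHDE, SYT1, SLC16A7, EMP1 and FAR2. SYT1, the calcium sensor synaptotagmin 1 of synaptic vesicles, had 8.29, 8.37 and 8.86 in control, 8.10, 8.00 and 8.20 in sh1 and 12.12, 12.43 and 12.30 in sh2. It was 4.18 ± 0.16 higher in sh2 than in sh1 (limma, adjusted p = 4.21e-08), with all 3 sh2 arrays above all others. Its neighbours above the median, E2F7 (0.31 and 0.44 against control) and PAWR (0.46 and 0.42), had like differences in both lines. SLC16A7, the monocarboxylate transporter MCT2, had 3.96, 3.22 and 3.18 in control, 4.02, 4.17 and 4.36 in sh1 and 7.45, 7.71 and 7.71 in sh2, a rise of 3.44 ± 0.20 (limma, adjusted p = 8e-07). Its row mean lay under the split.

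TRHDE was 4.42 ± 0.20 higher in sh2 than in sh1 (limma, adjusted p = 1.18e-07), between sh1 and control. EMP1, an epithelial membrane protein, had 6.64, 7.11 and 6.70 in control, 5.48, 5.98 and 5.64 in sh1 and 8.90, 9.21 and 8.82 in sh2, a difference of 3.28 ± 0.18 (limma, adjusted p = 4.95e-07). FAR2, which reduces fatty acyl-CoA to fatty alcohols, had 9.49, 9.34 and 9.40 in control, 8.45, 7.30 and 7.69 in sh1 and 10.88, 11.03 and 10.93 in sh2, a difference of 3.13 ± 0.23 (limma, adjusted p = 4.2e-06). For EMP1 and FAR2 the control arrays lay between both lines, with sh1 below and sh2 above.

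Both belonged to 5 genes called in opposite directions against control (0.463% of the rows; 0.536% of all rows; 3 without control array 2). MGST1, a membrane-bound glutathione transferase, had 11.56, 11.41 and 11.42 in control, 10.38, 10.21 and 9.54 in sh1 and 12.78, 12.60 and 12.93 in sh2, and was 2.73 ± 0.20 higher in sh2 than in sh1 (limma, adjusted p = 3.65e-06). SSPN, sarcospan of the dystrophin complex, was at -1.28 and 0.75 against control and 2.02 ± 0.185 higher in sh2 than in sh1 (limma, adjusted p = 2.42e-05). Its call in sh2 against control was lost when sh2 array 2 or 3, or control array 2, was left out. TDG, the thymine DNA glycosylase, went the other way, at 0.57 and -0.57, and was lower in sh2 than in sh1 (difference -1.14 ± 0.17; limma, adjusted p = 0.00103), and its calls against control were lost without any 1 control array. The call in sh1 was also lost without sh1 array 1 or 3 or sh2 array 2, and that in sh2 without sh1 array 3 or sh2 array 1 or 2. EMP1, MGST1, SSPN and FAR2 lie on the short arm and TDG on the long arm.

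The genes that fell most in sh2 relative to sh1 were PKP2, FGD4, PRICKLE1, PPM1H and MSI1. PKP2 differed by -3.92 ± 0.23 (limma, adjusted p = 7.45e-07). FGD4, an exchange factor for CDC42, had 6.63, 6.95 and 7.17 in control, 8.94, 9.34 and 8.74 in sh1 and 6.39, 7.04 and 6.46 in sh2, a difference of -2.38 ± 0.22 (limma, adjusted p = 2.26e-05). PRICKLE1, of planar cell polarity, had 8.16, 8.30 and 8.58 in control, 9.84, 10.04 and 9.67 in sh1 and 7.77, 8.08 and 7.61 in sh2 (-2.03 ± 0.17; limma, adjusted p = 1.01e-05). In FGD4 and PRICKLE1 sh1 stood above all other arrays and sh2 at or under control.

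MSI1, the RNA-binding protein Musashi 1, had 4.67, 4.96 and 4.68 in control, 6.60, 6.29 and 5.93 in sh1 and 4.87, 4.91 and 4.62 in sh2 (-1.47 ± 0.18; limma, adjusted p = 0.000192). PPM1H, a protein phosphatase, had 5.98, 6.63 and 5.91 in control, 6.76, 6.27 and 6.77 in sh1 and 4.82, 4.01 and 5.07 in sh2 (-1.97 ± 0.28; limma, adjusted p = 0.000649). MSI1 stood apart in sh1 and PPM1H in sh2, and both had row means under the split. Among the list members named above, SCARB1 was lower in sh2 than in sh1 (difference -1.38 ± 0.16; limma, adjusted p = 0.000132), the keratin KRT80 differed by -1.35 ± 0.18 (adjusted p = 0.000462) and CLEC2B by 1.41 ± 0.18 (adjusted p = 0.00035). The folate enzyme ALDH1L2 differed by 1.16 ± 0.20 (limma, adjusted p = 0.00236). KRT8 (-0.01 ± 0.12), KRT18 (0.06 ± 0.15), MDM2 (0.14 ± 0.14) and SHMT2 (0.15 ± 0.14) did not pass the threshold in this comparison.

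**Figure D5:**
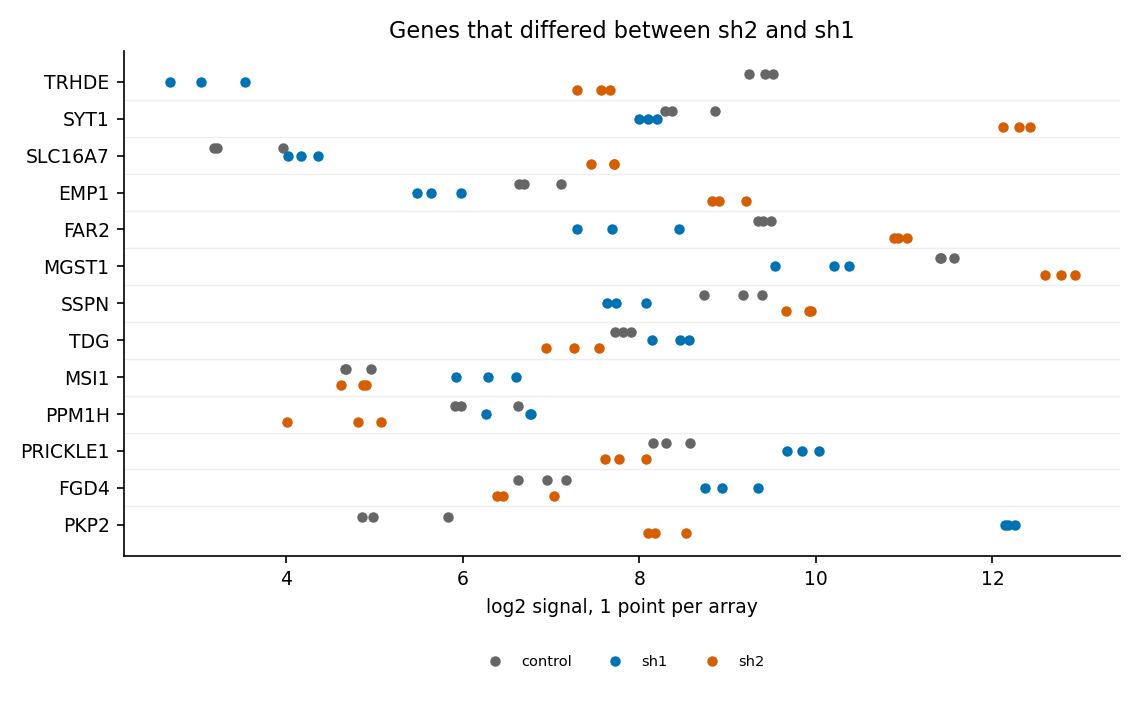
The log2 signal (x axis) of the 13 genes with the widest differences between sh2 and sh1 or with opposite calls (y axis); each point is 1 array of control, sh1 or sh2. The sh1 and sh2 arrays do not overlap in any of them, and SYT1 and SLC16A7 stand apart in sh2 while FGD4, PRICKLE1 and MSI1 stand apart in sh1.

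Along the chromosome, the running median of the difference between both lines ran from -0.15 around MPHOSPH9, near the long-arm end, to 0.18 around DNAJC14. The last bin, from EIF2B1 to ZNF268, had 0.44 in sh1 and 0.18 in sh2 against control. The first bin, from IQSEC3 to CD9, had a median of -0.24 for sh2 minus sh1. The bins with the widest differences between both lines were thus the first, the last (-0.19) and that from ATP5MC2 to RPL41 (0.20).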

How the data were processed

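Total RNA from 9 samples of AsPC-1 cells was hybridised to 1-colour whole-transcript arrays. The deposited table gives log2 signals, which the authors made with Transcriptome Analysis Console per the submitters' processing notes (version not given in the sources used here), and the log2 scale was read from the values (2.03 to 18.57). They were used as deposited. The medians of the arrays are alike, so a shift of every transcript would not show. limma 3.58.1 in R 4.3.3 fitted 1 model to all 21448 rows and 9 arrays, with Benjamini-Hochberg adjustment over all rows, and was tested on simulated data.

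The members and the 16 gene lists were chosen with earlier results of these data known. Named genes were the 10 highest and 10 lowest called alike in both lines, the 5 highest and 5 lowest called in each comparison, up to 4 called members of each list, genes at thresholds and chosen landmarks; list members not called, and a few further ones with their neighbours in gene order, were named after their values were seen. The main fit did not pair arrays by replicate number. Deviations of same-numbered arrays correlated at -0.0358 to 0.180, and 2 of 9 pairs were over 0.1. The pairs numbered 1 had 0.0856, 0.180 and 0.122. Differently numbered arrays were not correlated for reference, so these values do not settle whether the arrays were paired. The alternatives were quantile normalization, median centring, a signal filter, an intensity trend, 2 groups alone, a replicate block, a stricter threshold, other splits by signal and leaving out each array. The array annotation's build is not given in the sources used here; gene order and promoters come from RefSeq (GRCh38.p14). Precision is limited by the 3 arrays a group.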

Additional observations from a re-analysis of the deposited data

Results flagged for a closer look

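The difference between sh2 and sh1, which is the difference of their effects against the shared control, passed limma's threshold on the log2 scale for these genes. In the opposite-direction genes, sh2 minus sh1 was 3.28 for EMP1, 2.73 for MGST1, 2.02 for SSPN, 3.13 for FAR2 and -1.14 for TDG. Of the others, sh2 stood higher by 4.42 for TRHDE, 4.18 for SYT1 and 3.44 for SLC16A7. It stood lower for PKP2 (-3.92), FGD4 (-2.38), PRICKLE1 (-2.03), PPM1H (-1.97) and MSI1 (-1.47). Each line is 1 clone, so an effect of the shRNA sequence and a difference between clones cannot be told apart.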

How the results depend on the processing

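At an adjusted p under 0.01 in place of 0.05, the chromosome 12 rows called fell from 251 to 160 in sh1, from 255 to 136 in sh2 and from 132 to 79 in sh2 minus sh1. With 1 array left out they ran from 187 to 253, from 181 to 262 and from 101 to 124, and with the replicate block they were 250, 245 and 127. Quantile normalization, median centring, the signal filter, the intensity trend and 2-group fits kept each count within 1.5 times. The median difference above the split was 0.23 in sh1 and 0.25 in sh2 with the split at the lower quartile, and 0.15 and 0.17 with no split, since both add rows near the background. It ran from 0.295 to 0.312 in sh1 and from 0.303 to 0.338 in sh2 with 1 array left out. The highest value, 0.34, was without sh2 array 3. Of 160 called comparisons of named genes, 40 lost the call under at least 1 alternative and 0 changed direction. The signal filter covered 125 of the 160, since the others were of rows under the split.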
